A study of Bos taurus with 16 samples.

Results

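The thrombospondin family was examined in newborn Hanwoo calves, through the 5 genes THBS1 (gene ID 281530), THBS2 (338092), THBS3 (504323), THBS4 (541281) and COMP (281088, also known as thrombospondin 5). The 5 genes were found by gene ID among the 34109 genes of the count tables, and all 5 had counts in at least 1 library. RNA was sequenced from the round (hind leg) and sirloin (loin) muscle of 8 calves, which gave 16 libraries. The dams of the 4 control calves were fed 100% of their nutritional requirement in mid to late pregnancy and the dams of the 4 treated calves 150%. The muscles were taken right after birth from calves that, according to the study's methods, were male, and that had no treatment of their own. Each calf gave 1 library per muscle, so that the round and sirloin libraries share their animals, and a p-value measures the spread between calves of these small groups. Calves are named by diet and replicate number, as control calf 1 to 4 and treated calf 1 to 4. The family was chosen by the measured THBS1 difference between the diets in round muscle, so the round diet comparison is described without a test. Tests are given for sirloin muscle and for round against sirloin muscle. Between muscles the THBS1 result is read as a description, because its round values enter.

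Thrombospondins are secreted glycoproteins that bind calcium and modulate how cells attach to the extracellular matrix. THBS1 and THBS2 form trimers with type 1 repeats that bind CD36 and restrain the growth of blood vessels, and THBS1 can release TGF-beta from its latent complex. THBS3, THBS4 and COMP form pentamers without type 1 repeats. THBS4 is abundant in tendon and striated muscle, where it takes part in matrix assembly at the muscle-tendon junction, and COMP is a structural protein of cartilage and tendon.

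Total counts ranged from 44473011 to 72446933 reads in round and from 44863173 to 72165291 reads in sirloin libraries. All 6 skeletal muscle markers (ACTA1, CKM, MYH1, MYH2, TTN and DES) reached 1 TPM in each group, with summed levels between 43870 and 85670 TPM (a level scaled to transcript length and library size, as the authors deposited it). A pair of libraries stood apart by markers of other tissues. The round library of control calf 2 had a tendon marker sum (TNMD, SCX, MKX, FMOD and KERA) of 117 TPM, against at most 17.8 TPM in the other 15 libraries. The sirloin library of treated calf 4 had an adipocyte marker sum (ADIPOQ, PLIN1, FABP4 and LEP) of 3678 TPM, against at most 14.4 TPM elsewhere. Values without these calves are given beside the results of the thrombospondin genes that they move most. Control calf 2 also had the deepest library of each muscle, and TPM summed to exactly 1000000 in both of its libraries, against 999756 to 999858 in the other 14.

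THBS1 and THBS4 were the most abundant members on the per-length TPM scale, THBS2 and THBS3 had lower medians in each group, and COMP was lowest in 16 of 16 libraries. In round muscle of control calves the median level was 78.9 TPM for THBS1 and 20.1 TPM for THBS4. In round muscle of treated calves the order was turned, with medians of 8.05 TPM for THBS1 and 31.7 TPM for THBS4. THBS1 was above THBS4 in 4 of 4 round control libraries and below it in 4 of 4 round treated libraries. In sirloin muscle THBS1 was above THBS4 in 1 of 4 control and 2 of 4 treated libraries, and these neighbours in the order did not differ beyond their spread. The levels of THBS2 and THBS3 overlapped in every group, and THBS2 was the higher of them in 9 of 16 libraries. The THBS1 range overlapped those of THBS2 and THBS3 in sirloin treated libraries, where THBS1 was at 2.90, THBS2 at 1.86 and THBS3 at 1.82 TPM in calf 1. The THBS4 level exceeded those of THBS2 and THBS3 in every library.

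**Figure D1:**
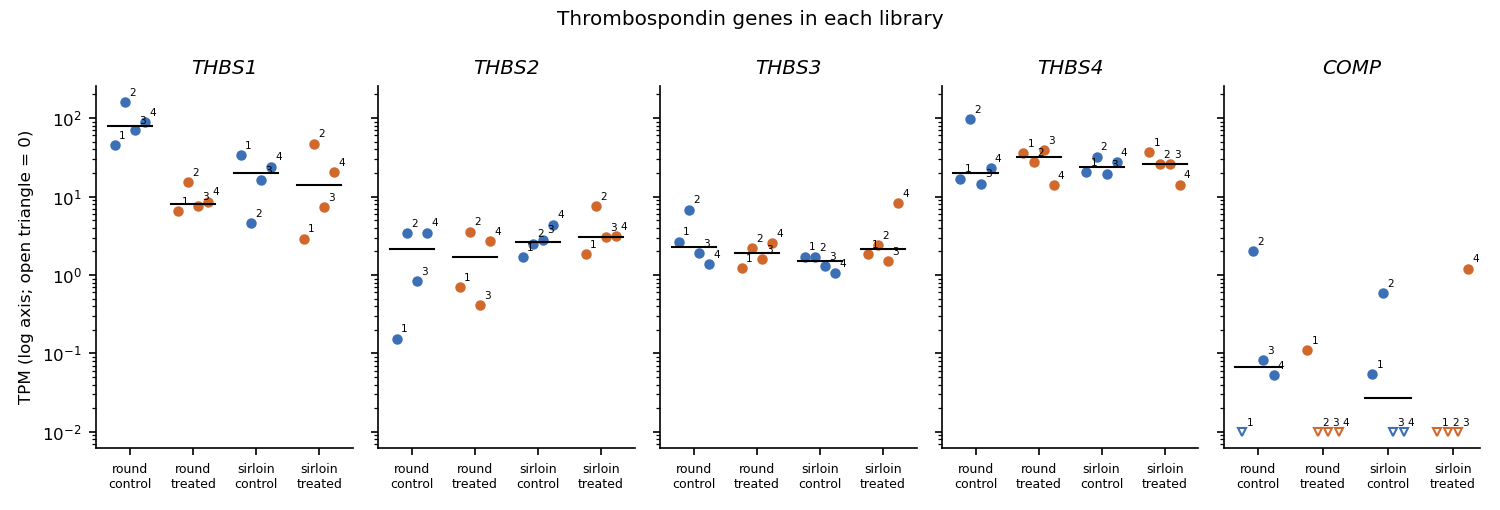
TPM of the 5 thrombospondin genes in each library on a log axis, by muscle and diet, with 1 point per calf (blue control, orange treated, replicate number beside it), the group median as a line and open triangles for libraries at 0. The 4 round control points of THBS1 (45.6 to 158 TPM) lie above the 4 round treated points (6.58 to 15.3 TPM), whereas the groups overlap in the panels of THBS2, THBS3 and THBS4.

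THBS1, the family's best known inhibitor of vessel growth, had levels of 169, 477, 249 and 333 CPM (read counts scaled to library size after TMM normalization) in the round muscle of control calves 1 to 4. In the round muscle of treated calves 1 to 4 its levels were 22.6, 46.1, 24.7 and 29.5 CPM. The lowest control library was above the highest treated library, and the smallest THBS1 count in round muscle was 1414 reads. The group levels were 307 ± 132 and 30.7 ± 10.6 CPM (mean ± SD, n = 4 each), and the log2 fold change was -3.30 with a standard error of 0.372 (95% interval -4.11 to -2.49), a 9.87-fold lower level in treated calves. These values led to the choice of the family and are given without a test. In bulk muscle, fewer cells that make a transcript and less transcript per cell cannot be told apart.

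Of the 5 members, 1 was below an adjusted p of 0.05 in the round diet comparison, which is THBS1 itself, and 0.0185% of the 21677 genes tested were. Groups without overlap were seen for 1 of the 5 members and for 1.76% of genes, and nothing is read from these counts. The count of 1 fell to 0 without control calf 4, without treated calf 1, 3 or 4, without control calf 2 and treated calf 4 together, and when all 16 libraries were fitted together. Nothing is read from these changes either, since THBS1 was chosen by this comparison. The THBS1 log2 fold change ranged from -3.57 to -3.05 when single calves were left out, and was -3.03 without control calf 2 and treated calf 4. Platelets carry THBS1 protein, and 4 of the 6 platelet markers (PPBP, GP9, GP1BA and TREML1) were under 0.1 TPM in all 16 libraries. The summed platelet markers were 1.42 to 1.86 TPM in round control and 1.69 to 3.78 TPM in round treated libraries and were mostly ITGA2B (1.22 to 1.48 and 1.42 to 3.76 TPM). PF4, a further platelet gene, was at 0.383, 0, 0.290 and 0.526 TPM in round control and 0.233, 0, 0 and 0.263 TPM in round treated calves 1 to 4, on at most 10 counts. Summed endothelial markers were 49.9 to 89.7 and 56.5 to 87.9 TPM, and summed smooth muscle markers 102 to 203 and 74.9 to 173 TPM, in round control and round treated libraries, with all 6 and all 3 markers reaching 1 TPM. Between the diets in round muscle the estimates of 5 of 5 tendon markers (median log2 fold change -1.70) and 5 of 6 fibroblast markers (-0.92) were lower in treated calves. Those of 4 of 4 slow fibre markers (0.88) and 4 of 4 red blood cell markers (1.18) were higher, and the median over all genes was 0.02. Control calf 2 had the highest round tendon and fibroblast sums (117 and 1518 TPM). The group medians of these sums lay close together. They were 9.70 (control) and 7.21 TPM (treated) for tendon and 297 and 289 TPM for fibroblast markers. TNMD, 1 of the 5 tendon markers, had 4, 141, 9 and 3 counts in round control calves 1 to 4. In round treated calves 1 to 4 TNMD had 0 counts. The diets overlapped in round muscle for the tendon markers SCX, MKX, FMOD and KERA. Summed slow fibre markers (MYH7, TNNT1, MYL3 and TNNC1) were 8748 to 14430 TPM in round control and 9915 to 48720 TPM in round treated libraries, summed fibroblast markers 277 to 1518 and 246 to 405 TPM, and summed red blood cell markers 2.93 to 14.9 and 8.43 to 29.8 TPM. The part of any of these cell types in the THBS1 values was not tested.

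In sirloin muscle, a readout that the choice did not use, the THBS1 levels did not separate the diets. They were 124, 14.5, 57.0 and 78.8 CPM in control calves 1 to 4 and 8.41, 135, 23.2 and 62.5 CPM in treated calves 1 to 4. The groups overlapped almost fully, and within a group the highest level was 8.56 times the lowest in control and 16.02 times in treated calves, against 2.82 and 2.04 times in round muscle. The group levels were 68.7 ± 45.7 and 57.2 ± 56.5 CPM (mean ± SD, n = 4 each), and the log2 fold change of -0.27 (standard error 0.759, 95% interval -1.94 to 1.41) had an adjusted p of 1 by edgeR's quasi-likelihood test and was -0.61 without control calf 2. With an interval this wide, a sirloin difference of moderate size was not detectable with these calves. None of the 5 members was below an adjusted p of 0.05 by edgeR in sirloin muscle, against 0.00918% of 21776 genes, and DESeq2 and limma-voom called 0 members as well. At an unadjusted p below 0.05 the counts were 0 of 5 members and 3.91% of genes, and groups without overlap were seen for 0 of 5 members and 1.68% of genes.

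The muscles of a calf were then set side by side. THBS1 was higher in round than in sirloin muscle in 4 of 4 control calves, by 1.36, 32.9, 4.36 and 4.23 times in calves 1 to 4. In treated calves 1 to 4 the ratio of round to sirloin was 2.68, 0.342, 1.06 and 0.472, so that round was higher in 2 of 4. The widest ratio, in control calf 2, came from the highest round and the lowest sirloin level of its diet. On the log2 scale the difference of round minus sirloin was 0.44 to 5.04 in control and -1.55 to 1.42 in treated calves, and these ranges overlapped. The difference between the diet effects of the muscles was -3.06 for THBS1 (standard error 0.936), a description because it contains the round values. None of the 5 members was below an adjusted p of 0.05 for this difference, and 0% of 22877 genes were, with 0 members called by DESeq2. At an unadjusted p below 0.05 by edgeR there were 2 of 5 members, THBS1 and THBS3, and 2.78% of genes, from which nothing is read because the round values enter. Averaged over the diets, THBS1 was 0.63 higher in round muscle on the log2 scale (standard error 0.460, 95% interval -0.34 to 1.60), which did not pass edgeR's test (adjusted p = 0.951) and was 0.31 without control calf 2. In this comparison 0 of 5 members passed, against 0.0612% of 22877 genes, and 0 of 5 members were below an unadjusted p of 0.05 by edgeR and 0 were called by DESeq2. That fit does not use that the muscles share calves. With the calf as a block, THBS1 was 1.01 higher in round muscle (standard error 0.447, adjusted p = 0.426, edgeR). There 0 of 5 members passed against 0.476% of genes, and 2 of 5, THBS1 and THBS2, were below an unadjusted p of 0.05 against 11.2% of genes. The round THBS1 values that led to the family enter both fits. The THBS1 values between muscles are therefore descriptions, and nothing is read from its place in these counts.

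**Figure D2:**
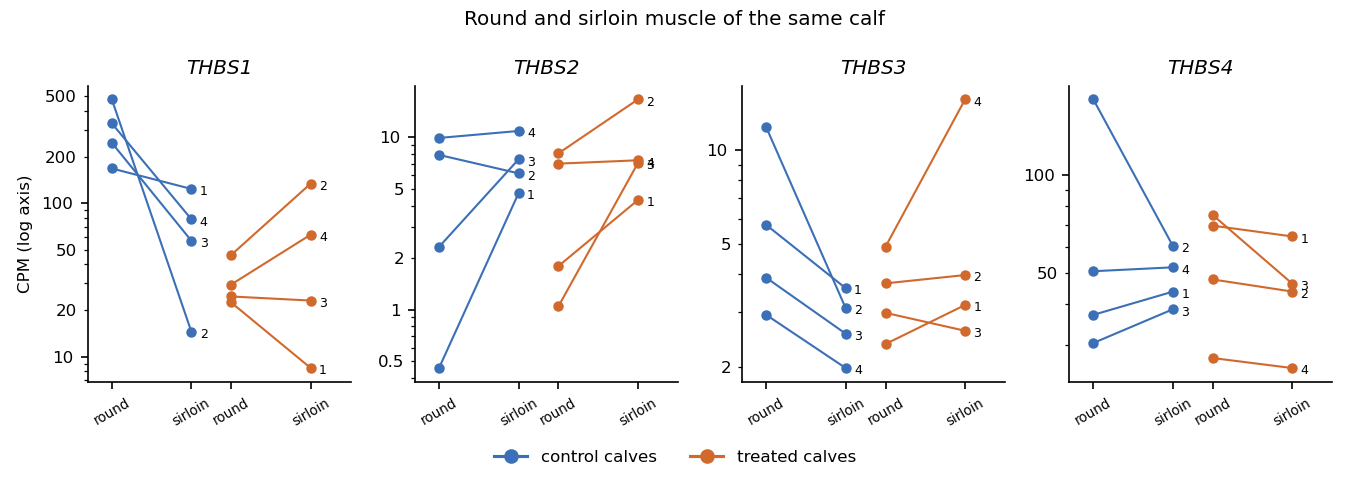
Round and sirloin levels of THBS1, THBS2, THBS3 and THBS4 in CPM on a log axis, with a line joining the muscles of a calf (blue control, orange treated, replicate number at the sirloin point). All 4 control lines of THBS1 and of THBS3 fall from round to sirloin muscle, and the sirloin point of THBS2 is the higher in 7 of 8 calves.

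The make-up of the family was compared as the share of each member in the summed TPM of the 5 genes. The sum was 134 ± 90.8 TPM in round control, 42.3 ± 9.98 in round treated, 48.8 ± 9.75 in sirloin control and 52.9 ± 20.5 TPM in sirloin treated muscle (mean ± SD, n = 4 each). THBS1 made up 69.8, 59.4, 80.0 and 75.9% of the sum in the round muscle of control calves 1 to 4, and 14.8, 31.4, 15.4 and 31.1% in that of treated calves 1 to 4. These groups did not overlap, and the means differed by -48.1 percentage points. THBS4 took the larger part in round muscle of treated calves, with 50.0 to 80.6% against 16.8 to 36.1% in control calves. Both differences are descriptions, since they follow from the round THBS1 values. The ratio of THBS1 to THBS4 TPM was 1.65 to 4.76 in round control libraries and 0.184 to 0.623 in round treated libraries.

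In sirloin muscle the THBS1 share was 58.4, 11.03, 40.7 and 42.3% in control calves 1 to 4 and 6.73, 56.8, 19.4 and 43.1% in treated calves 1 to 4. The difference of -6.61 percentage points was within the spread between calves (two-sided exact permutation test, p = 0.686, adjusted over 10 share tests p = 0.857, smallest possible p 0.0286). The other 4 sirloin share tests had exact p of 0.229 or more. The adjustment over 10 tests also counts the share tests between muscles, whose p-values are not given. Between the muscles of a calf, the THBS1 share was 12.4 points higher in round muscle and higher in 5 of 8 calves (7.27 points without control calf 2), and the THBS2 share was 3.36 points lower and lower in 7 of 8 calves. These differences between muscles are descriptions, because the round THBS1 values enter every round share.

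**Figure D3:**
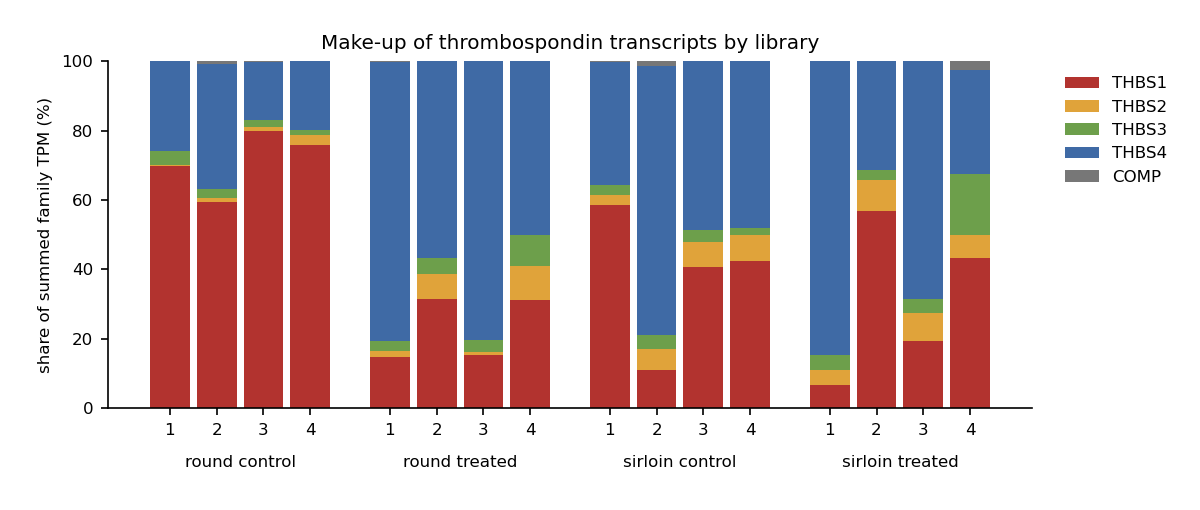
Share of each thrombospondin gene in the summed TPM of the family, as 1 stacked bar per library, by muscle, diet and replicate number. THBS1 fills 59.4 to 80.0% of the round control bars and 14.8 to 31.4% of the round treated bars, and the sirloin bars of both diets range from 6.73 to 58.4%.

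THBS4, the pentamer typical of tendon and striated muscle, had round levels of 37.1, 171, 30.4 and 50.6 CPM in control calves 1 to 4 and 69.8, 47.7, 75.3 and 27.4 CPM in treated calves 1 to 4. Control calf 2 was the highest of all and the other 7 libraries intermixed. The log2 fold change in round muscle was -0.37 (standard error 0.520), and it turned to 0.47 without control calf 2, whose round library also had the highest tendon sum. In sirloin muscle the levels were 43.8, 60.5, 38.6 and 52.0 CPM in control and 64.7, 43.8, 46.3 and 25.5 CPM in treated calves 1 to 4. These groups overlapped, and the log2 fold change of -0.11 (standard error 0.281, 95% interval -0.73 to 0.51) did not pass the test (adjusted p = 1, edgeR) and was 0.009 without control calf 2. The interval with all calves was the narrowest among the members in sirloin muscle. Between muscles THBS4 was higher in round in 4 of 4 treated calves, by 1.07 to 1.63 times, and in 1 of 4 control calves, and the mean difference of 0.43 (standard error 0.324) did not pass (adjusted p = 0.963, edgeR). Without control calf 2 it was 0.06, and with the calf as a block 0.23 (standard error 0.184).

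THBS3, a further pentamer, was low in most libraries. Its round levels were 5.75, 11.9, 3.89 and 2.95 CPM in control calves 1 to 4 and 2.37, 3.73, 2.99 and 4.89 CPM in treated calves 1 to 4. The diets overlapped in round muscle, and the fitted log2 fold change was -0.79 (standard error 0.440), or -0.27 without control calf 2. Its sirloin levels were 3.59, 3.10, 2.56 and 1.99 CPM in control calves and 3.17, 3.96, 2.62 and 14.6 CPM in treated calves 1 to 4. Treated calf 4, whose sirloin library had the adipocyte sum of 3678 TPM, lay far above the other 7 sirloin libraries, which intermixed. The sirloin log2 fold change of 1.10 (standard error 0.524, 95% interval -0.06 to 2.26) did not pass the test (adjusted p = 0.876, edgeR) and was 0.22 without treated calf 4.

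Within calves THBS3 was higher in round than in sirloin muscle in 4 of 4 control calves, by 1.49 to 3.84 times, and in 1 of 4 treated calves. The log2 differences of 0.56 to 1.93 in control and -1.57 to 0.19 in treated calves did not overlap, which held for 2.6% of all genes. The corresponding difference of the diet effects was -1.93 (standard error 0.734), and it contains the round contrast that led to the family and is a description. It moved to -0.73 when control calf 2 and treated calf 4 were left out. Averaged over the diets, THBS3 was 0.16 higher in round muscle (standard error 0.364), which did not pass (adjusted p = 1, edgeR). It was -0.08 without control calf 2 and 0.50 without treated calf 4, and 0.24 with the calf as a block (standard error 0.22).

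THBS2, the closest relative of THBS1 and likewise a restraint on vessel growth, varied widely in round muscle. Its round levels were 0.457, 7.89, 2.31 and 9.89 CPM in control calves 1 to 4 and 1.78, 8.05, 1.04 and 7.02 CPM in treated calves 1 to 4. The diets overlapped, and the highest level was 21.6 times the lowest among control and 7.73 times among treated calves. The round log2 fold change was -0.19 (standard error 0.816, 95% interval -1.97 to 1.59), and 0.06 without control calf 2. In sirloin muscle its levels were 4.73, 6.17, 7.44 and 10.9 CPM in control and 4.32, 16.6, 7.07 and 7.34 CPM in treated calves 1 to 4. The sirloin log2 fold change of 0.27 (standard error 0.412) did not pass the test (adjusted p = 0.998, edgeR). THBS2 was lower in round than in sirloin muscle in 7 of 8 calves, the exception being control calf 2. The mean log2 difference between muscles of -0.74 (standard error 0.512, 95% interval -1.82 to 0.34) did not pass (adjusted p = 0.938, edgeR). With the calf as a block it was -1.15 (standard error 0.379), below an unadjusted p of 0.05 and not below it after adjustment (adjusted p = 0.236, edgeR).

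**Figure D4:**
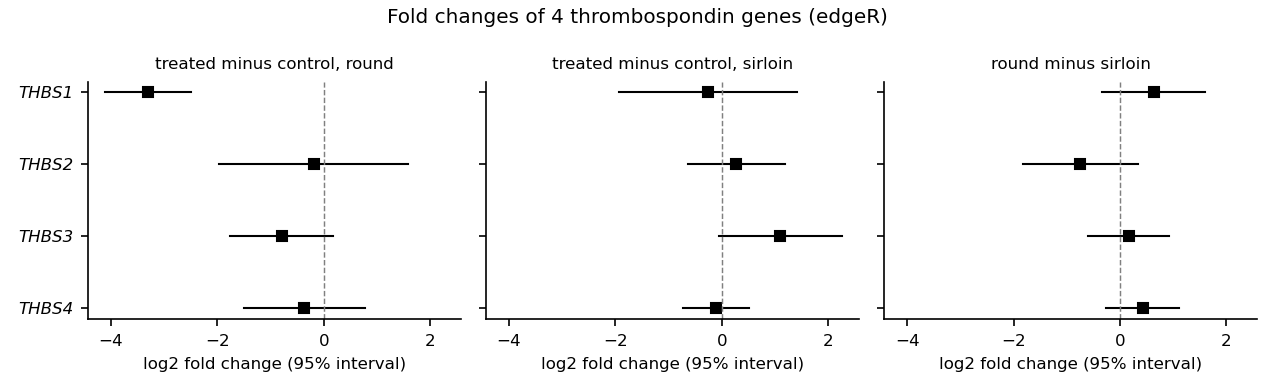
Log2 fold changes of THBS1, THBS2, THBS3 and THBS4 with 95% intervals from edgeR, for treated minus control in round muscle (a description), treated minus control in sirloin muscle, and round minus sirloin (for THBS1 a description). In the sirloin diet and muscle panels all 4 intervals include 0, and in the round diet panel THBS1 stands at -3.30 with an interval of -4.11 to -2.49.

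COMP, the matrix protein of cartilage and tendon, had 0 counts in 9 of 16 libraries, where 3 counts, the limit that a count of 0 allows, correspond to 0.0447 to 0.0669 CPM. In round muscle it had 0, 211, 6 and 5 counts in control calves 1 to 4 and 11, 0, 0 and 0 counts in treated calves 1 to 4. In sirloin muscle it had 4, 63, 0 and 0 counts in control calves and 0, 0, 0 and 113 counts in treated calves 1 to 4. The 3 libraries above 0.5 TPM were the round and sirloin libraries of control calf 2 (2.01 and 0.581 TPM) and the sirloin library of treated calf 4 (1.21 TPM), and the other 13 were at or below 0.109 TPM. Single libraries set each group's level of COMP, and its fitted folds, which depend on groups at or near 0 counts, are not read. Its adjusted p was 1 in the sirloin diet comparison and 1 between muscles (edgeR), and COMP alone among the members missed the low count filter filterByExpr, which the other 4 passed.

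The single highest levels of COMP, THBS3 and THBS4 came from libraries with high connective tissue or fat markers. So did that of THBS1, at 158 TPM in the round library of control calf 2. The next THBS4 level, 39.1 TPM in the round library of treated calf 3, came with a tendon sum of 7.66 TPM. The sirloin library of treated calf 4 had 14.2 TPM of THBS4. In the round library of control calf 2, 4 of 5 tendon markers reached 1 TPM, with FMOD, a collagen-binding proteoglycan, at 59.8 TPM, KERA at 44.4 TPM and TNMD at 3.45 TPM. The summed fibroblast markers (PDGFRA, DCN, LUM, COL1A1, COL3A1 and DPT) were 1518 TPM in that library, 638 TPM in the sirloin library of treated calf 4 and 156 to 463 TPM in the other 14. The cartilage markers MATN1, MATN3, COL9A1 and SNORC were under 0.1 TPM in all 16 libraries, while COL2A1 was at 1.39 TPM in the round and 0.978 TPM in the sirloin library of control calf 2. The tendon sums by group were 2.95 to 117 TPM in round control, 6.36 to 17.0 in round treated, 3.33 to 17.8 in sirloin control and 1.65 to 13.1 TPM in sirloin treated libraries. The round library of treated calf 4, with a tendon sum of 17.0 TPM, had 0 counts of COMP. The part of these tissues in the levels of COMP, THBS1, THBS3 and THBS4 was not tested.

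**Figure D5:**
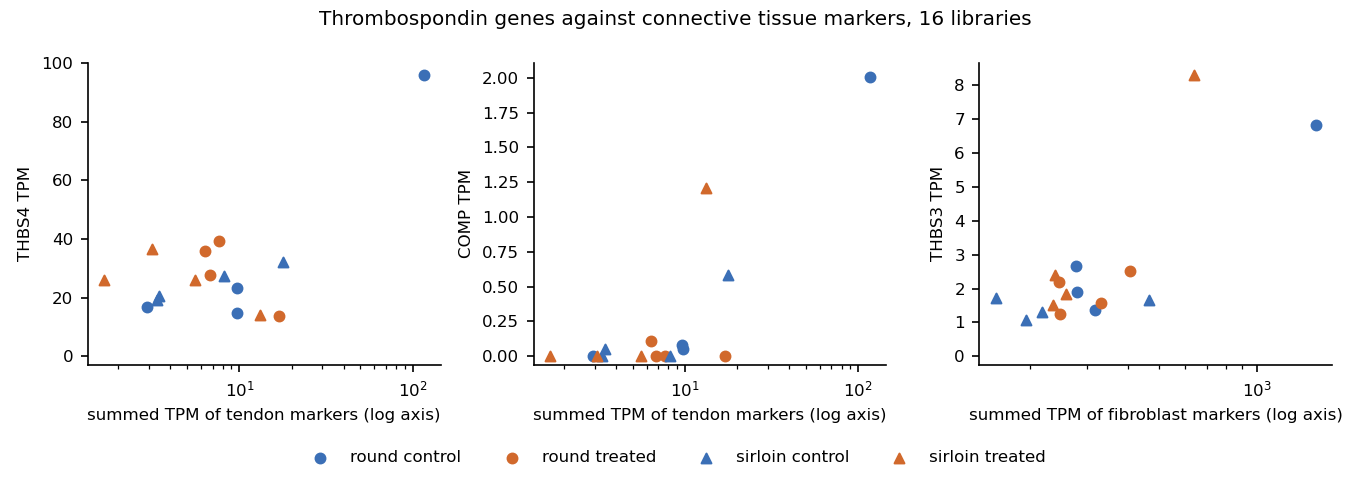
TPM of THBS4 and COMP against the summed TPM of 5 tendon markers, and of THBS3 against the summed TPM of 6 fibroblast markers, for all 16 libraries (log horizontal axes, circles round and triangles sirloin, blue control and orange treated). The round library of control calf 2 is at the far right of each panel, with 96.0 TPM of THBS4 and 2.01 TPM of COMP, and the sirloin library of treated calf 4 has the highest THBS3 level at 8.31 TPM.

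Receptors, partners and related proteins of the family were followed through lists of genes. CD36 and CD47, the classical receptors of THBS1, had log2 fold changes of -0.15 (standard error 0.417) and 0.02 (0.271) between the diets in round muscle, and of -0.04 (0.349) and 0.10 (0.196) in sirloin muscle, where both adjusted p were 1 (edgeR). In sirloin muscle none of 12 receptors and binding partners, 14 TGF-beta pathway genes, 4 proteases that cut thrombospondins, 11 other matricellular proteins, 7 other proteins with type 1 repeats and 9 serum response and YAP targets was below an adjusted p of 0.05. At an unadjusted p below 0.05 there were 1 of the 11 matricellular genes, 3 of the 9 serum response and YAP targets and none of the other lists, against 3.91% of all genes. The lowest unadjusted p among them was that of FOS, an immediate early transcription factor, with a log2 estimate 2.54 higher in treated calves (standard error 0.826, adjusted p = 0.876, edgeR). TNXB, a tenascin of the matrix, was at -0.55 on the log2 scale (standard error 0.218) and CCN3, a matricellular protein, at -0.70 (0.340), each with an adjusted p of 0.876 (edgeR). The receptor genes CACNA2D1 and LRP1 had log2 fold changes of -0.54 and 0.49, TGFBR3 and TGFB2 of 0.71 and -0.47, ADAMTS4 and ADAMTS12 of 0.91 and -0.60, and SPON1 and SPON2 of 0.48 and -0.56, and none passed. The sirloin median over the 5 thrombospondins was 0.27, and over all genes tested 0.03.

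Between the muscles again no gene of these lists passed after adjustment, and most estimates were higher in round muscle. These values are from the fit that does not use that the muscles share calves. Over all genes that fit passed 14 and the fit with the calf as a block 109. The lists were not followed with the calf as a block, so a paired difference of these genes was not tested. Of the 11 other matricellular genes 10 had a higher estimate in round muscle and 4 were below an unadjusted p of 0.05, all higher in round, and of the 14 TGF-beta genes these counts were 11 and 4, against 6.33% of all genes below 0.05. Below 0.05 were also 3 of 9 serum response and YAP targets and 1 of 7 other type 1 repeat proteins, against 0 of 12 receptors and binding partners and 0 of 4 proteases. CCN2, a matricellular target of TGF-beta and YAP, had a log2 difference of 1.54 (standard error 0.382, adjusted p = 0.293, edgeR) and was higher in round in 8 of 8 calves, which 2.5% of genes were in one direction or the other. The YAP target ANKRD1 had 2.37, TGFB3 1.07, CCN3 1.00, SPON1 0.66 and TGFB1 0.58, with adjusted p of 0.421 to 0.765 (edgeR). ADAMTS12 had 1.03, ADAMTS1 0.69, THSD1 0.49, ITGA6 0.39 and ITGB1 0.27, with adjusted p of 0.803 to 0.887 (edgeR). The median over the 5 thrombospondins was 0.16 and over all genes 0.00, beside 0.59 over the 11 other matricellular proteins. Marker lists also differed between the muscles, with medians of 1.35 for tendon, 0.70 for smooth muscle and 0.40 for fibroblast markers. Skeletal muscle markers had a median of -0.17 and adipocyte markers of -3.66. These lists were not fitted without control calf 2 or treated calf 4, and the part of these tissues in the list estimates was not tested.

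The genes whose levels varied most like each member between calves were ranked by Pearson's r of log2 CPM over the 16 libraries after the 4 group means were removed. The search covered 12315 genes with a mean CPM of at least 1, and the genes named are the top of that search. The points share calves, depth and tissue composition, and the values are descriptions. THBS1 was most like RAB23, a small GTPase (r = 0.877), C28H1orf198 (0.873) and ATP8B1, a phospholipid flippase (0.871). With the group means kept, these r values were 0.806, 0.377 and 0.553. For THBS2, CHTF8 (0.886) and the cohesin subunit STAG1 (0.875) led the ranking. THBS3 was most like TENT5A (0.941), the Notch ligand JAG1 (0.896) and UGGT2, a folding sensor of the endoplasmic reticulum (0.893). THBS4 was most like ITGA2, the alpha 2 subunit of a collagen receptor (0.940), the syntaxin STX6 (0.926) and podoplanin, PDPN (0.924). COMP was most like RBP4, the retinol carrier (0.915), ACAT2 (0.909) and dermatopontin, DPT (0.884), where 9 of its 16 values were at 0. Among the members, COMP and THBS3 had r = 0.661 and THBS1 and THBS2 had r = 0.486, whereas THBS1 and THBS4 had r = -0.12.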

How the data were processed

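Total RNA of 16 muscle libraries was sequenced. The labels state poly(A) selection and name Trimmomatic, STAR, featureCounts and build ARS-UCD1.2, whereas the study's methods describe depletion of rRNA and globin RNA, HISAT2, Bowtie2 and StringTie. Which of them made the tables is not known, and antisense reads, near-identical copies and strand were not checked. The authors deposited read counts (whole numbers, without normalization) for 34109 genes and TPM values, which sum to 999756 to 1000000 per library. The deposited comparison tables of fold changes and p-values were not used. RefSeq's ARS-UCD2.0 gene table supplied symbols, and no coordinates, for 30762 gene IDs.

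Counts were fitted with edgeR 4.0.16 (TMM, glmQLFit, glmQLFTest, two-sided, R 4.3.3) on genes with at least 1 count in any library of the fit: 8 round, 8 sirloin, or 16 libraries in 4 groups. P-values were adjusted by Benjamini-Hochberg over all genes, with a threshold of 0.05. A standard error is the log2 fold change over the square root of F, and intervals are 95%. Steps were tested on simulated data. Shares of TPM in sirloin muscle were tested with exact permutation in SciPy 1.17.1. Alternatives were DESeq2 1.42.0, limma-voom 3.58.1, RLE factors, filterByExpr, blocks, 1 fit of 16 libraries, calves left out singly, and, chosen after seeing the data, control calf 2 and treated calf 4 left out together. Depth (44473011 to 72446933 reads) limits only COMP, and limits from 0 counts cover counting error only.

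Titles and sample numbers tie the round and sirloin libraries of a calf, and after removal of group means these correlated at 0.25 to 0.595. Named genes were the 5 members, CD36 and CD47, from each list the 2 genes with the smallest p in sirloin muscle and the 2 between muscles among genes with a mean CPM of at least 1, and the 3 genes most like each member (log2 CPM, prior count 2). Some genes that this rule covers are left out of the text by name. FMOD, KERA, TNMD, COL2A1, PF4 and ITGA2B were picked from the marker lists after their values were seen. Members and lists were chosen with earlier results of these data known.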

Additional observations from a re-analysis of the deposited data

Results flagged for a closer look

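In 6 of 28 groups of 4 libraries, the highest TPM of a gene stood apart, with a gap to the next library over the group's range above Dixon's 95% critical value. Chance gives about 1 in 20 groups where values are normally distributed. That rate does not hold for COMP, since a group of 3 libraries at 0 and 1 above 0 has a ratio of 1 by construction, as in the round treated and sirloin treated groups. THBS3 stood apart in the sirloin library of treated calf 4 at 8.31 TPM (ratio 0.868), and THBS4 in the round library of control calf 2 at 95.97 TPM (0.894). COMP stood apart in the round library of control calf 2 at 2.008 TPM, the round library of treated calf 1 at 0.1091 TPM, the sirloin library of control calf 2 at 0.5808 TPM and the sirloin library of treated calf 4 at 1.208 TPM. The value of 0.1091 TPM rests on 11 counts. THBS1, THBS2, the THBS1 share and the family sum had no such library.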

How the results depend on the processing

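The THBS1 estimate in round muscle kept its direction under each alternative run (-3.57 to -3.05 with single calves left out), but the count of members called there was 0 when all 16 libraries were fitted together, 0 without control calf 2 and treated calf 4, and 0 to 1 with single calves left out. The family was chosen by this comparison, so the round estimate is a description and nothing is read from the round count. The counts of members called in sirloin muscle, between muscles and for the difference of diet effects were 0 under each alternative run. The THBS1 estimate in sirloin muscle ran from -1.15 without treated calf 2 to 0.20 without control calf 1, and its difference in share from -15.64 without control calf 2 to 1.66 points without treated calf 1. Of the 15 genes named as most like a member, 5 were shared with Spearman's rho and 6 with the group means kept.

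Other estimates changed sign. With limma-voom, COMP was -0.70 in sirloin muscle and 0.56 between muscles, and THBS4 was 0.03 for the difference of diet effects. Calves of different diets with the same number did not vary together (correlations -0.154 to 0.188), and with the number as a replicate block THBS2 was 0.034 in round and COMP -1.85 in sirloin muscle. With the calf as a block COMP was 0.007 between muscles and THBS4 0.055 for the difference of diet effects, and no block changed the call of a member. Without control calf 2 and treated calf 4, THBS4 was 0.69 in round and 0.22 in sirloin muscle and 0.51 for the difference of diet effects, and COMP was -3.72 in sirloin muscle, 3.08 between muscles and 3.196 for the difference. With single calves left out the ranges were -0.64 to 0.34 for THBS2 and -0.62 to 0.47 for THBS4 in round muscle, -0.23 to 0.52 for THBS2, -0.34 to 0.091 for THBS4 and -6.75 to 3.74 for COMP in sirloin muscle, -0.075 to 0.50 for THBS3 and -3.15 to 3.21 for COMP between muscles, and -0.45 to 0.48 for THBS4 and -9.61 to 3.16 for COMP for the difference. The COMP estimates rest on groups at or near 0 counts and are no measure of its change, and for the others the cause was not tested.

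Over all genes the counts called by edgeR, DESeq2 and limma-voom were 4, 46 and 1 in round muscle, 2, 13 and 0 in sirloin muscle and 14, 83 and 21 between muscles, where the calf block gave 109. With 4 calves per group, wide intervals limit THBS1 and THBS3 in sirloin muscle, and low counts limit COMP.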
